A study of Homo sapiens with 12 samples.

Results

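Homologous recombination, the Fanconi anaemia pathway and the DNA damage checkpoint were followed through 41 genes chosen for these functions. The choice was made with earlier results of these data known, and the genes were matched by symbol to the rows of both deposited tables. Of the 41 genes, 40 were listed in each table, among 11554 genes in SW48 and 11070 in 23132/87, and FANCB was listed in neither. SW48 is an established colorectal adenocarcinoma line and 23132/87 an established gastric adenocarcinoma line, both labelled as wild type. Treatment was with 10 µM myricone C, a neolignan from Myristica fragrans per the series title, or with vehicle (0.1% DMSO), for 48 h, and all cells were grown with 10% serum at passages 5 to 20. Each of the 4 groups held 3 libraries labelled as biological replicates, 12 in all. The sources used here do not say whether replicates were separate cultures, so p-values measure only the spread between these libraries. The series title names gastric and colorectal cancer, endoplasmic reticulum stress, apoptosis and ROCK, and the comparisons made here set myricone C against vehicle in each line and then set the resulting changes of the lines against each other.

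Homologous recombination copies an intact sister DNA molecule into a broken one: the MRN complex and RBBP8 (CtIP) trim the broken ends, BRCA1 with BARD1, PALB2 and BRCA2 prepare the trimmed ends for strand exchange, and accessory proteins such as XRCC2, XRCC3 and RAD54L and the BLM helicase complex assist and resolve the exchange. The Fanconi pathway repairs crosslinks between DNA strands: its core complex and the ubiquitin-conjugating enzyme UBE2T attach ubiquitin to FANCI and FANCD2, which then bring in nucleases. ATM and ATR are the apical checkpoint kinases, and CHEK2 and CHEK1 are the kinases they activate to slow the cell cycle. Many of these genes are transcribed mainly in S and G2 phase, which is background to the values given below.

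Values are given as deposited. They resemble FPKM or TPM, levels per length of transcript and size of library, but whether they are the one or the other is open. Log2 changes are myricone C over vehicle on log2(value + 1), which understates the change of low genes, with limma's standard error (SE). A gene was called changed where limma's Benjamini-Hochberg adjusted p over all genes of its table was under 0.05. Read depth is unknown because the values are not counts. Summed over its listed genes, an SW48 library held 477551 to 499845 with myricone C and 509551 to 536594 with vehicle. In 23132/87 the sums were 464037 to 506021 with myricone C and 518943 to 525838 with vehicle. Every treated library thus summed below every vehicle library of its line, and the summed values of gene lists below were not scaled for this. In SW48, the treated library of replicate 1 stood closer to vehicle on the leading principal component (14.4) than the other 2 treated libraries (36.5 and 29.1), and small structural RNAs took 5.26% of its listed values against 0.049% to 0.204% in the other SW48 libraries. No library duplicated another. All 5 epithelial markers examined (CDH1, EPCAM, KRT8, KRT18 and KRT19) were listed in both lines, and under myricone C 4 rose and 1 was not called in SW48 (median log2 change 0.74), while 4 fell and 1 rose in 23132/87 (median -1.22). Of the intestinal markers, 3 of 7 were listed in SW48 and 5 of 7 in 23132/87. None of the 8 gastric, 8 leukocyte or 8 mesenchymal and endothelial markers was listed in SW48, and 1 of each was in 23132/87 (TFF1, CD68 and COL1A1). The intestinal factor CDX2 fell by 1.47 in SW48 (adjusted p = 0.000333, limma) and was not called in 23132/87 (-0.02, adjusted p = 0.928, limma). Of the 5 intestinal markers listed in 23132/87, VIL1 fell by 1.54 (adjusted p = 0.000143, limma). LGALS4 rose by 1.44 there (adjusted p = 0.00575, limma), and 3 were not called. In 23132/87 CD68 rose by 1.22 (adjusted p = 0.000288, limma), the gastric TFF1 fell by 0.85 (adjusted p = 0.0028, limma) and COL1A1 was not called (-0.17, adjusted p = 0.383, limma). The part of these changes in the results below was not tested. In bulk RNA, fewer cells of a cycle stage and less RNA per cell cannot be told apart.

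Most of the listed genes that changed under myricone C were lower. In SW48, 22 of 40 fell (55%), 2 rose (5%) and 16 were not called, with a median log2 change of -0.44 against -0.08 over all genes of the table. Over all SW48 genes 29.3% were called, 19.2% lower and 10.1% higher. In 23132/87, 21 of 40 fell (52.5%), 5 rose (12.5%) and 14 were not called, with a median of -0.43 against 0.01 over all genes. Over all 23132/87 genes 46.5% were called, 23.2% lower and 23.3% higher, so the 12.5% higher among these 40 lies below that share. The counts by role given below are to be read against these shares over all genes. Because the 40 were chosen with earlier results of these data known, the contrasts are descriptions and not tests. The changes ranged between -1.07 and 0.67 in SW48 and between -1.49 and 1.00 in 23132/87. A fall of at least 1 on the log2 scale was seen for 2 genes in SW48 and 9 in 23132/87.

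Most of the genes that fell did so in both lines. The 18 genes lower in both were UBE2T, RAD54L, RAD51C, RAD51AP1, BRIP1, BARD1, FANCI, CHEK1, EME1, TOPBP1, ATRIP, RMI2, CHEK2, FANCA, XRCC2, RAD54B, BLM and FANCG. They make up 81.8% of the genes that fell in SW48 and 85.7% of those that fell in 23132/87. Over all genes, 1232 were lower in both lines, among 2213 lower in SW48 and 2571 lower in 23132/87. The last 2 counts include genes listed in 1 line only. MUS81 and FANCF rose in both, and no gene of the 40 was called in opposite directions. Across the 10264 genes in both tables, 12.0% were called lower in both lines, 7.15% higher in both and 0.935% in opposite directions. All 3 myricone C values lay below all 3 vehicle values for 26 of the 40 genes in SW48, against 28.4% of all genes there, and for 23 of 40 in 23132/87, against 27.9%. They lay above for 3 genes in SW48, against 16.8% of all genes, and for 7 in 23132/87, against 28.9%. Leaving out each library in turn kept the calls of 13 of the 22 falls in SW48 and 19 of the 21 in 23132/87, and of 0 of the 2 rises in SW48 and 4 of the 5 in 23132/87. The matching shares over all genes were not computed.

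**Figure D1:**
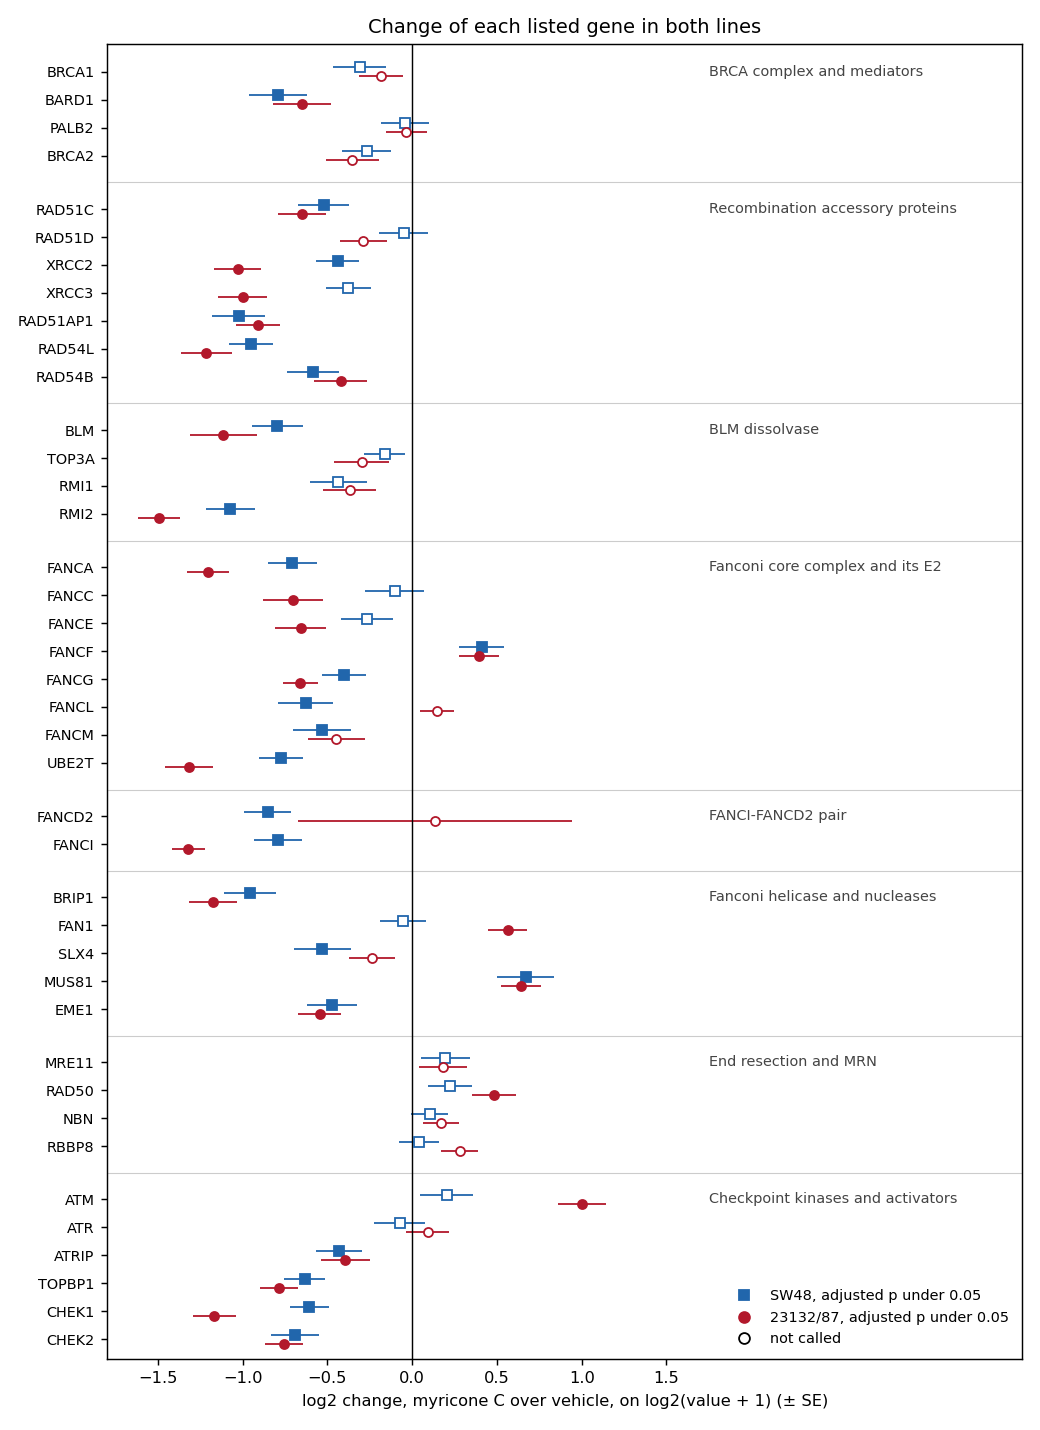
Log2 change, myricone C over vehicle, of the 40 listed genes grouped by role, with SW48 as blue squares above 23132/87 as red circles; bars are 1 SE and open symbols were not called. The recombination accessory proteins, the Fanconi core genes and the checkpoint kinases CHEK1 and CHEK2 lie mostly left of 0, while the end resection genes lie right of 0 in both lines.

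Cell-cycle markers moved with these genes. All 8 proliferation markers examined fell in both lines, with a median log2 change of -1.13 in SW48 and -1.33 in 23132/87. Their summed value was 226 to 305 in SW48 myricone C libraries and 556 to 603 in SW48 vehicle libraries. In 23132/87 it was 235 to 250 in myricone C libraries and 677 to 715 in vehicle libraries. Their part in the results below was not tested. The summed value of the 40 genes was 415, 375 and 406 in SW48 myricone C libraries and 521, 533 and 569 in vehicle libraries. Without FANCD2, whose value in a single library is described below, the sum was 387, 369 and 356 in 23132/87 myricone C libraries and 556, 505 and 553 in vehicle libraries. In SW48, myricone C replicate 1, the library that stands apart, held the highest of the 3 treated values for 16 of the 22 genes that fell. In 23132/87, myricone C replicate 1 held it for 12 of the 21 that fell. The matching shares over all genes that fell were not computed. Without SW48 myricone C replicate 1, 21 of the genes were called lower and 2 higher in SW48, among 3656 calls over all genes. With it, 22 were lower and 2 higher, among 3383 calls.

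Promoters of cell-cycle genes are known to carry E2F, CHR and CCAAT motifs, and the start regions of these genes were searched for the letters of each. RefSeq promoters (GRCh38.p14, 250 bases before to 50 bases after each start) were matched for 37 of the 41 genes, and RAD54B, NBN, RMI2 and FANCI were not matched. Both strands were searched for an E2F-type motif (TTTCCCGC, TTTCGCGC, TTTGCCGC or TTTGGCGC), for the cell-cycle genes homology region (CHR, TTTGAA) and for the CCAAT box, and no matches overlapped in these promoters. The E2F-type letters were found in 3.31% of 35116 promoters, in 6.9% of 9709 listed genes and in 6 of the 37 genes (16.2%). The 6 were FANCA, TOPBP1 and XRCC2, among the 15 matched genes lower in both lines, and FANCC, FANCD2 and RMI1, among the 22 others. CHR letters were found in 4 of the 37 (10.8%), BRIP1, UBE2T, ATM and FANCC, against 13.3% of listed genes and 15.2% of promoters. CCAAT letters were found in 18 of the 37 (48.6%), against 43% of listed genes and 34.6% of promoters, and in 9 of the 15 genes lower in both lines and 9 of the 22 others. A match is a description of letters and not a factor's site.

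The promoters with E2F-type letters are shown for the 5 genes that fell in at least 1 line, 5′ to 3′ on the gene's strand, with the motif in capitals. The regions are chr3:10026187-10026486 (FANCD2, plus strand), chr3:133661892-133662191 (TOPBP1, minus strand), chr7:152676092-152676391 (XRCC2, minus strand), chr9:95317660-95317959 (FANCC, minus strand) and chr16:89816598-89816897 (FANCA, minus strand). Counted from 0 at the start base, the motif ran from -2 to 5 in FANCD2, from -7 to 0 in TOPBP1, from 21 to 28 in XRCC2 and from -172 to -165 in FANCA. FANCC held 2 matches, from -172 to -165 and from -46 to -39.
FANCD2: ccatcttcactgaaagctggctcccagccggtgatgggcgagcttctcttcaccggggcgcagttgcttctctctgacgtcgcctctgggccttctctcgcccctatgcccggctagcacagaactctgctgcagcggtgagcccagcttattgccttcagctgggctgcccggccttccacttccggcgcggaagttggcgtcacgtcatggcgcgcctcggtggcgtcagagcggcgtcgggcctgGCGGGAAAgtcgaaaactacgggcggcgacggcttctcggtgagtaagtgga
TOPBP1: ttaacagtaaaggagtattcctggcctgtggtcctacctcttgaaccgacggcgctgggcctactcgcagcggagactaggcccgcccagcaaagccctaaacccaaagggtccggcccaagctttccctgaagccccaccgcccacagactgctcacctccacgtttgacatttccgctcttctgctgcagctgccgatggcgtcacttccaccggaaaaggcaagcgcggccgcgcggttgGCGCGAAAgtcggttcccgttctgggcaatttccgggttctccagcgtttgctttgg
XRCC2: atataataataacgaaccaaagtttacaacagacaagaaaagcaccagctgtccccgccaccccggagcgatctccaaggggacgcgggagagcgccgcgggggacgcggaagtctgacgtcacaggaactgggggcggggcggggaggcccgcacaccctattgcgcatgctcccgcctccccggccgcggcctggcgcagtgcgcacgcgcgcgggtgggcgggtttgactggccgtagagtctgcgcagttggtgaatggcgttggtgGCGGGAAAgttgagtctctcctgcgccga
FANCC: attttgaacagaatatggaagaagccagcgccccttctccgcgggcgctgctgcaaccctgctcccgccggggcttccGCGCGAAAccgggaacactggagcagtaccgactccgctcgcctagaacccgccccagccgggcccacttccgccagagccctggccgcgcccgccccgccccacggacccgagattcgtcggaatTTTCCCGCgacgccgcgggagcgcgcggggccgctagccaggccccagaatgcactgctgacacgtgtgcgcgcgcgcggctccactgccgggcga
FANCA: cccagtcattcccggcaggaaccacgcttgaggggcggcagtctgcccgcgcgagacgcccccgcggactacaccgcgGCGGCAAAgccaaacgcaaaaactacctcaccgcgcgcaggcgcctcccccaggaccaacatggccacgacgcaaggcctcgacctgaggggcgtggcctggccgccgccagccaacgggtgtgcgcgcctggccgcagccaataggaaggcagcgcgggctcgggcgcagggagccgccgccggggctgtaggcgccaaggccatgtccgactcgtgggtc

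The 2 promoters with CHR letters among the genes that fell in both lines are shown with that of ATM, which also holds them and was not lower in either line. CHR and CCAAT letters are in capitals. The regions are chr17:61863479-61863778 (BRIP1, minus strand), chr1:202341887-202342186 (UBE2T, minus strand) and chr11:108222817-108223116 (ATM, plus strand). CHR letters began at -240 in BRIP1, at -153 in UBE2T and at -20 in ATM, and CCAAT letters at -117, -49 and -28 in BRIP1, at -124 and -73 in UBE2T and at -188 in ATM. A further ATM promoter, chr11:108223075-108223374, held CCAAT letters at -56 and 37 and no CHR letters. FANCC, shown above, held CHR letters at -248 and fell in 23132/87 alone. Any part of these letters in the changes was not tested.
BRIP1: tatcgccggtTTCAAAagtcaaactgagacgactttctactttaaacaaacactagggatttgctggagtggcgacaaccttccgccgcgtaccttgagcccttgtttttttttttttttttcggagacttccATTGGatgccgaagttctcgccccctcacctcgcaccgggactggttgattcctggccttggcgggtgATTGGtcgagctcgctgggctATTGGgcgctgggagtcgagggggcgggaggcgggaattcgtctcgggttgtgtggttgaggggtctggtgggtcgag
UBE2T: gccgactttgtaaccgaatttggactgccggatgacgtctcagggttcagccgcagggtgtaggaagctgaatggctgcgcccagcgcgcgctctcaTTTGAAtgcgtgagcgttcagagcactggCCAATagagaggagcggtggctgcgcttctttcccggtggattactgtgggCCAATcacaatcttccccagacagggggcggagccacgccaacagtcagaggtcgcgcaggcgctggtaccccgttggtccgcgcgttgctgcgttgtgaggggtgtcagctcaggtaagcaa
ATM: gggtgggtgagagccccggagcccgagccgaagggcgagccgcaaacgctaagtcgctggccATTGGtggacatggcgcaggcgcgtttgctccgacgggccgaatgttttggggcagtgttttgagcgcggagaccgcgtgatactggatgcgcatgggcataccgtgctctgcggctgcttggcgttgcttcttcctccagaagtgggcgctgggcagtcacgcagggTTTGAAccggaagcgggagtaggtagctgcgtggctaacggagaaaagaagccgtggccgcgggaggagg

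Of the 4 genes of the BRCA complex and its mediators, BARD1 fell in both lines and BRCA1, PALB2 and BRCA2 were not called. BARD1, the partner that forms the BRCA1 ubiquitin ligase, fell by 0.79 ± 0.17 on the log2 scale in SW48 (adjusted p = 0.00538, limma) and fell by 0.65 ± 0.17 in 23132/87 (adjusted p = 0.0105, limma). BRCA1 (chr17:43044295-43170245, minus strand) had values of 8.73, 6.68 and 8.36 in SW48 myricone C libraries and 8.28, 11.1 and 10.9 in vehicle libraries. In 23132/87 it had 7.50, 7.42 and 8.24 with myricone C and 10.5, 8.53 and 7.86 with vehicle. Treated and vehicle libraries overlapped in both lines, and BRCA1 was not called (log2 change -0.31 ± 0.16 in SW48, adjusted p = 0.155, and -0.18 ± 0.13 in 23132/87, adjusted p = 0.274, limma). BRCA2 (chr13:32315474-32400266, plus strand), a tumour suppressor of homologous recombination, had the lowest vehicle mean of the 40 genes in each line, and stood at 2.23, 1.78 and 1.72 in SW48 myricone C libraries and 2.63, 2.47 and 2.39 in vehicle libraries. Among 23132/87 libraries the values were 2.26, 1.40 and 1.43 with myricone C and 2.39, 2.23 and 2.62 with vehicle. The SW48 groups did not overlap and those of 23132/87 did, through myricone C replicate 1. BRCA2 was not called in either line (log2 change -0.27 ± 0.15 in SW48, adjusted p = 0.188, and -0.35 ± 0.15 in 23132/87, adjusted p = 0.0857, limma), but was called lower in 23132/87 without that library (-0.50, adjusted p = 0.0202). PALB2, the bridge between BRCA1 and BRCA2, was at -0.04 in SW48 and -0.03 in 23132/87.

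Of the 7 recombination accessory proteins, 5 fell in SW48 (median log2 change -0.52) and 6 fell in 23132/87 (median -0.91). RAD54L (chr1:46247688-46278473, plus strand), a DNA motor protein of strand exchange, had values of 7.19, 6.66 and 6.13 in SW48 myricone C libraries and 13.4, 13.1 and 14.9 in vehicle libraries. The 23132/87 libraries held 2.86, 2.53 and 3.15 with myricone C and 9.41, 8.16 and 6.41 with vehicle. Every treated library lay below every vehicle library, and RAD54L fell by 0.95 ± 0.13 in SW48 (adjusted p = 0.000515, limma) and fell by 1.21 ± 0.15 in 23132/87 (adjusted p = 0.000188, limma). LRRC41 on the opposite strand covers 25.1% of the exonic bases of RAD54L. RAD51AP1 (chr12:4538798-4560048, plus strand), which stimulates strand pairing, had 7.78, 4.97 and 5.86 in SW48 myricone C libraries and 13.0, 13.7 and 13.7 in vehicle libraries. Values in the gastric line were 6.74, 7.85 and 6.50 with myricone C and 14.5, 12.3 and 15.5 with vehicle. RAD51AP1 fell by 1.02 ± 0.16 in SW48 (adjusted p = 0.000889, limma) and fell by 0.91 ± 0.13 in 23132/87 (adjusted p = 0.000377, limma), with no overlap of groups.

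The accessory proteins XRCC2 and XRCC3, which share a family of ATPases, had lower log2 changes in 23132/87 than in SW48, a difference tested below. XRCC2 (chr7:152644779-152676165, minus strand) had 9.57, 7.86 and 8.48 in SW48 myricone C libraries and 12.1, 12.0 and 12.1 in vehicle libraries. In 23132/87 it had 2.38, 2.07 and 2.00 with myricone C and 4.62, 5.47 and 6.29 with vehicle. XRCC2 fell by 0.44 ± 0.13 in SW48 (adjusted p = 0.0243, limma) and fell by 1.03 ± 0.14 in 23132/87 (adjusted p = 0.000297, limma). The SW48 call did not survive removal of any of vehicle replicates 1, 2 and 3 or myricone C replicates 2 and 3 (log2 change -0.44 to -0.38, adjusted p = 0.0555 to 0.0952). XRCC3 (chr14:103697609-103715504, minus strand) had 14.5, 13.6 and 16.8 in SW48 myricone C libraries and 22.0, 18.7 and 18.5 in vehicle libraries. Among 23132/87 libraries the values were 7.50, 8.79 and 8.31 with myricone C and 20.8, 17.8 and 14.1 with vehicle. It fell by 1.00 ± 0.15 in 23132/87 (adjusted p = 0.000443, limma) and was not called in SW48 (-0.38 ± 0.13, adjusted p = 0.0515, limma), where leaving out myricone C replicate 3 gave a call (-0.46, adjusted p = 0.0465). KLC1 on the opposite strand covers 76.7% of the exonic bases of XRCC3, and no label states the strand setting of the counting.

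RAD51C, RAD54B and RAD51D complete this group. RAD51C, a partner of XRCC3 in the same family, fell by 0.52 in SW48 (adjusted p = 0.0242, limma) and fell by 0.65 in 23132/87 (adjusted p = 0.00423, limma), and its SW48 call was lost without vehicle replicate 3 or myricone C replicate 1 or 2 (-0.55 to -0.39, adjusted p = 0.0518 to 0.106). RAD54B, a relative of RAD54L, fell by 0.59 in SW48 (adjusted p = 0.0151, limma) and fell by 0.42 in 23132/87 (adjusted p = 0.0487, limma). FSBP shares 59.1% of its exonic bases on the same strand and is listed in neither table. Its SW48 call was lost without vehicle replicate 3 (-0.51, adjusted p = 0.0695), and its 23132/87 call without any 1 of vehicle replicates 1, 2 and 3 and myricone C replicates 2 and 3 (-0.45 to -0.31, adjusted p = 0.0828 to 0.163). FSBP on the same strand shares 59.1% of the exonic bases of RAD54B. RAD51D, a partner of XRCC2, was not called, at -0.05 in SW48 and -0.29 in 23132/87.

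RMI2 had the lowest log2 change of the 40 genes in both lines, and in SW48 it lay within 1 SE of RAD51AP1. It belongs to the complex of BLM helicase, TOP3A and RMI1 that separates intertwined DNA molecules after strand exchange. RMI2 (chr16:11249619-11381662, plus strand) had values of 6.21, 4.97 and 6.39 in SW48 myricone C libraries and 13.1, 12.1 and 14.9 in vehicle libraries, a log2 change of -1.07 ± 0.14 (adjusted p = 0.000451, limma). The 23132/87 libraries held 5.95, 5.55 and 6.69 with myricone C and 21.5, 17.8 and 17.5 with vehicle, a log2 change of -1.49 ± 0.13 (adjusted p = 1.8e-05, limma). Treated means were 5.85 ± 0.772 in SW48 and 6.06 ± 0.578 in 23132/87, and vehicle means 13.4 ± 1.40 in SW48 and 18.9 ± 2.26 in 23132/87 (SD, n = 3 each). They were set side by side without a test because the lines have separate tables, which may have been normalized separately. Ordered from the lowest log2 change, RMI2 stood at 211 of 11554 genes in SW48 and at 130 of 11070 in 23132/87. BLM (chr15:90717327-90816165, plus strand) had 4.22, 3.04 and 3.82 in SW48 myricone C libraries and 6.89, 6.48 and 7.99 in vehicle libraries. Values in the gastric line were 3.86, 2.51 and 1.79 with myricone C and 6.73, 6.07 and 7.81 with vehicle. Without overlap of groups, BLM fell by 0.79 ± 0.15 in SW48 (adjusted p = 0.003, limma) and fell by 1.11 ± 0.20 in 23132/87 (adjusted p = 0.00137, limma). TOP3A, the topoisomerase of the complex, was not called in either line, at -0.16 in SW48 and -0.30 in 23132/87. RMI1, its scaffold, was at -0.44 in SW48 and -0.37 in 23132/87, again not called. Without myricone C replicate 1, RMI1 was called lower in SW48 (-0.55, adjusted p = 0.0374). Leaving out that replicate in 23132/87 gave calls for RMI1 (-0.49, adjusted p = 0.0287) and TOP3A (-0.48, adjusted p = 0.0147).

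**Figure D2:**
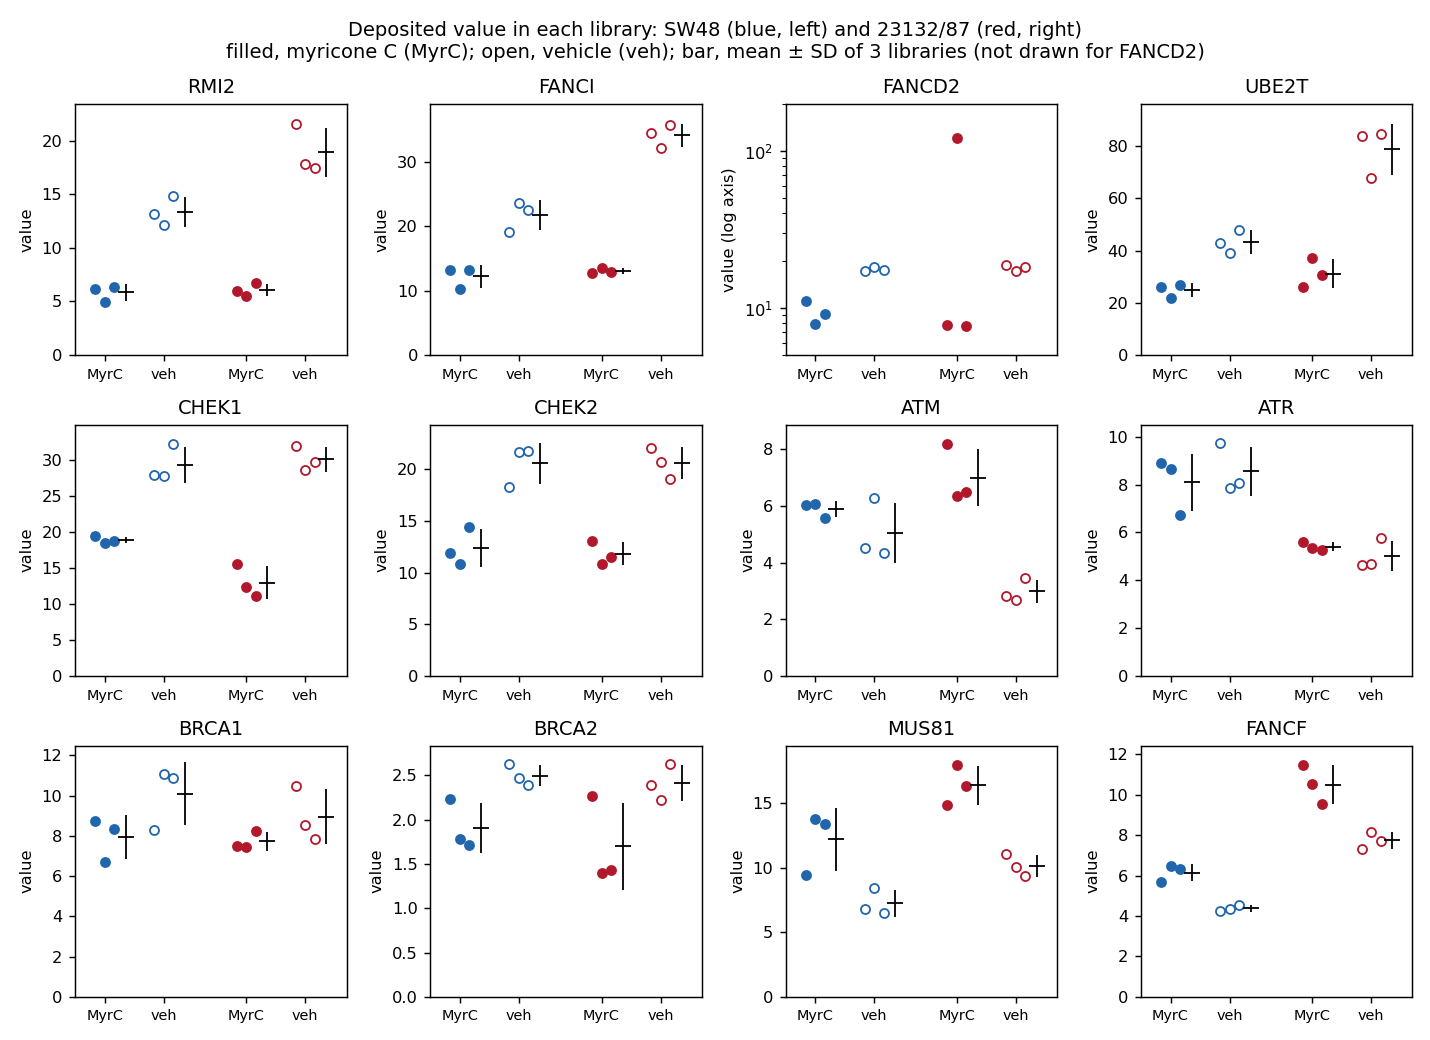
Deposited value of 12 of the genes in each library, with SW48 in blue at left and 23132/87 in red at right, myricone C filled and vehicle open; crosses are the mean ± SD of 3 libraries, and the FANCD2 panel has a log axis and no mean. RMI2, FANCI, UBE2T, CHEK1 and CHEK2 are lower in every treated library of both lines, ATM is apart from vehicle in 23132/87, and 1 treated 23132/87 library holds FANCD2 at 120.4.

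Of the 8 listed genes of the Fanconi core complex and its ubiquitin-conjugating enzyme, 5 fell and 1 rose in each line. UBE2T (chr1:202331657-202341980, minus strand), that enzyme, had the highest vehicle level of the 40 genes. Its values were 26.0, 21.8 and 26.9 in SW48 myricone C libraries and 42.7, 39.0 and 47.9 in vehicle libraries, a log2 change of -0.77 ± 0.13 (adjusted p = 0.00141, limma). In 23132/87 they were 25.8, 37.1 and 30.6 with myricone C and 83.8, 67.6 and 84.7 with vehicle, a log2 change of -1.32 ± 0.14 (adjusted p = 7.72e-05, limma). FANCA (chr16:89737549-89816657, minus strand), a scaffold of the core complex, had 17.0, 13.3 and 16.4 in SW48 myricone C libraries and 30.3, 23.8 and 24.0 in vehicle libraries. In 23132/87 it had 7.62, 5.71 and 6.65 with myricone C and 16.9, 16.4 and 16.5 with vehicle. No treated library reached a vehicle library, and FANCA fell by 0.71 ± 0.14 in SW48 (adjusted p = 0.00389, limma) and fell by 1.21 ± 0.12 in 23132/87 (adjusted p = 5.76e-05, limma). ZNF276 on the opposite strand covers 23.6% of the exonic bases of FANCA.

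FANCF rose in both lines, and FANCL fell in SW48 without a call in 23132/87. FANCF (chr11:22622890-22625841, minus strand), an adaptor of the core complex, had 5.66, 6.47 and 6.32 in SW48 myricone C libraries and 4.23, 4.36 and 4.54 in vehicle libraries. Among 23132/87 libraries the values were 11.5, 10.5 and 9.52 with myricone C and 7.34, 8.18 and 7.71 with vehicle. FANCF was the core gene that rose, by 0.41 ± 0.13 in SW48 (adjusted p = 0.0384, limma) and 0.39 ± 0.12 in 23132/87 (adjusted p = 0.0205, limma), with no overlap of groups. The SW48 call was lost without any 1 of vehicle replicates 1, 2 and 3 and myricone C replicates 2 and 3 (0.38 to 0.43, adjusted p = 0.0824 to 0.122), and the 23132/87 call without vehicle replicate 1 or myricone C replicate 1 or 2 (0.33 to 0.39, adjusted p = 0.0554 to 0.0645). FANCL (chr2:58159243-58241372, minus strand), the ubiquitin ligase subunit, had 22.2, 18.1 and 19.2 in SW48 myricone C libraries and 23.9, 34.3 and 36.8 in vehicle libraries. The 23132/87 libraries held 18.5, 18.7 and 20.1 with myricone C and 17.8, 16.4 and 17.4 with vehicle. FANCL fell by 0.63 ± 0.16 in SW48 (adjusted p = 0.0145, limma), a call lost without vehicle replicate 2 or 3 or myricone C replicate 2 (-0.57 to -0.51, adjusted p = 0.0517 to 0.0712). In 23132/87 every treated value lay above every vehicle value, and FANCL was not called (0.15 ± 0.10, adjusted p = 0.252, limma). Genes on the opposite strand, among them the listed GAS2 and VRK2, cover 11.3% of the exonic bases of FANCF and 19.7% of those of FANCL.

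The other listed core genes were FANCG, FANCM, FANCC and FANCE. FANCG, an adaptor within the complex, fell by 0.40 in SW48 (adjusted p = 0.04, limma) and fell by 0.66 in 23132/87 (adjusted p = 0.00071, limma). Removing any 1 of vehicle replicates 1, 2 and 3 and myricone C replicates 2 and 3 ended the SW48 call (-0.45 to -0.30, adjusted p = 0.0578 to 0.161). FANCM, the translocase that anchors the core complex to DNA, fell by 0.53 in SW48 (adjusted p = 0.0386, limma) and was not called in 23132/87 (-0.45, adjusted p = 0.0516, limma). That SW48 call was lost without any 1 of vehicle replicates 2 and 3 and myricone C replicates 2 and 3 (-0.52 to -0.45, adjusted p = 0.107 to 0.134), and FANCM was called in 23132/87 without myricone C replicate 1 (-0.58, adjusted p = 0.023). FANCC and FANCE, which join the subcomplexes of the core, fell in 23132/87, with log2 changes of -0.70 (adjusted p = 0.00943, limma) and -0.66 (adjusted p = 0.0058, limma). In SW48 they were at -0.10 and -0.27 and were not called.

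FANCI and FANCD2 form the clamp that receives ubiquitin from the core complex. FANCI (chr15:89243949-89317261, plus strand) had values of 13.3, 10.2 and 13.2 in SW48 myricone C libraries and 19.1, 23.7 and 22.6 in vehicle libraries, a log2 change of -0.79 ± 0.14 (adjusted p = 0.00219, limma). Values in the gastric line were 12.7, 13.5 and 12.9 with myricone C and 34.5, 32.2 and 35.8 with vehicle, a log2 change of -1.32 ± 0.10 (adjusted p = 8.07e-06, limma). As with RMI2, treated means were close in the lines, at 12.2 ± 1.73 in SW48 and 13.1 ± 0.413 in 23132/87. Vehicle means were 21.8 ± 2.37 in SW48 and 34.2 ± 1.80 in 23132/87 (SD, n = 3 each). No test was made of these levels because the separate tables may have been normalized separately. Not all genes that fell were so close: treated means of FANCA were 15.6 in SW48 and 6.66 in 23132/87, while those of CHEK2 were 12.4 and 11.8. FANCD2 (chr3:10026414-10101930, plus strand) had 11.1, 7.93 and 9.15 in SW48 myricone C libraries and 17.3, 18.1 and 17.5 in vehicle libraries, and fell by 0.85 ± 0.14 (adjusted p = 0.00127, limma). In 23132/87 its values were 7.77, 120.4 and 7.64 with myricone C and 18.8, 17.2 and 18.3 with vehicle. Treated replicates 1 and 3 lay below every vehicle library, and replicate 2 lay above them all. FANCD2 was not called in 23132/87 with that library (0.13 ± 0.81, 95% interval -1.67 to 1.94, adjusted p = 0.908, limma) and was called lower without it (-1.13, adjusted p = 0.000221, limma). A largest value at least 5 times the next of its group was found for 2 of 11070 genes in that library, FANCD2 among them. The listed genes within 100000 bases of FANCD2 showed no such value there: BRK1 was at 62.9, 77.0 and 77.1 in the 3 treated libraries and VHL, the von Hippel-Lindau gene, at 15.3, 14.8 and 14.7.

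The helicase and nucleases of crosslink repair changed in both directions. BRIP1 (chr17:61681266-61863521, minus strand), a helicase that binds BRCA1, had 4.38, 3.23 and 3.05 in SW48 myricone C libraries and 7.39, 7.45 and 8.47 in vehicle libraries. In 23132/87 it had 2.42, 1.95 and 1.96 with myricone C and 5.16, 5.91 and 7.09 with vehicle. Without overlap of groups, BRIP1 fell by 0.95 ± 0.15 in SW48 (adjusted p = 0.00112, limma) and fell by 1.18 ± 0.14 in 23132/87 (adjusted p = 0.000168, limma). MUS81 (chr11:65857126-65867653, plus strand), the catalytic subunit of a nuclease that cuts branched DNA, had 9.40, 13.8 and 13.4 in SW48 myricone C libraries and 6.76, 8.40 and 6.52 in vehicle libraries. Among 23132/87 libraries the values were 14.9, 17.9 and 16.3 with myricone C and 11.1, 10.0 and 9.32 with vehicle. MUS81 rose in both lines, by 0.67 ± 0.17 in SW48 (adjusted p = 0.0116, limma) and 0.64 ± 0.12 in 23132/87 (adjusted p = 0.00173, limma), and the SW48 call was lost without vehicle replicate 3 or myricone C replicate 2 (0.58 to 0.61, adjusted p = 0.0514 to 0.0525). EME1, the partner that MUS81 needs for activity, fell by 0.47 in SW48 (adjusted p = 0.0346, limma) and fell by 0.55 in 23132/87 (adjusted p = 0.00655, limma). The SW48 call of EME1 was lost without any 1 of vehicle replicates 2 and 3 and myricone C replicates 1 and 2 (-0.46 to -0.39, adjusted p = 0.0633 to 0.131). Genes on the opposite strand, among them the listed CFL1 and LRRC59, cover 14.1% of the exonic bases of MUS81 and 16.4% of those of EME1.

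FAN1 (chr15:30903852-30943108, plus strand), a nuclease recruited by ubiquitinated FANCD2, had 11.3, 10.1 and 8.78 in SW48 myricone C libraries and 11.3, 10.2 and 9.77 in vehicle libraries, and was not called (-0.05, adjusted p = 0.801, limma). In 23132/87 FAN1 had 10.7, 11.9 and 10.2 with myricone C and 7.07, 6.78 and 7.32 with vehicle, and rose by 0.56 ± 0.11 (adjusted p = 0.00302, limma). The 23132/87 groups were apart and the SW48 groups overlapped. MTMR10 on the opposite strand covers 24.3% of the exonic bases of FAN1. SLX4, the scaffold that holds MUS81 and other nucleases, fell by 0.53 in SW48 (adjusted p = 0.0339, limma) and was at -0.24 in 23132/87 (adjusted p = 0.172, limma). The SW48 call was lost without any 1 of vehicle replicates 1 and 2 and myricone C replicates 2 and 3 (-0.52 to -0.43, adjusted p = 0.0853 to 0.112).

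None of the 4 end resection genes fell in either line, where 19.2% of all genes in SW48 and 23.2% in 23132/87 were called lower. A set of 4 genes is too small to be set apart from those shares. In SW48 none was called in limma's test (0 of 4 at unadjusted p under 0.05, median log2 change 0.15). In 23132/87 1 of 4 rose (25%, against 23.3% of all genes, median 0.23). That gene was RAD50, the coiled-coil ATPase of the MRN complex. RAD50 had 18.4, 17.8 and 15.6 in SW48 myricone C libraries and 13.6, 14.0 and 16.5 in vehicle libraries, with overlapping groups (0.22, adjusted p = 0.219, limma). In 23132/87 RAD50 had 12.8, 10.3 and 11.6 with myricone C and 7.06, 8.28 and 8.56 with vehicle (0.48 ± 0.13, adjusted p = 0.0113, limma), and every treated library lay above every vehicle library. The annotated gene AC116366.3 shares 79.7% of the exonic bases of RAD50 on the same strand. The nuclease MRE11 was at 0.20 in SW48 and 0.18 in 23132/87, NBN, the third MRN subunit, was at 0.10 in SW48 and 0.17 in 23132/87, and RBBP8 was at 0.04 in SW48 and 0.28 in 23132/87, none of them called.

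Among the checkpoint genes, the effector kinases CHEK1 and CHEK2 fell in both lines, and neither apical kinase was called lower. CHEK1 (chr11:125625136-125676255, plus strand), the kinase activated by ATR, had 19.3, 18.4 and 18.8 in SW48 myricone C libraries and 27.9, 27.7 and 32.1 in vehicle libraries, a log2 change of -0.61 ± 0.12 (adjusted p = 0.00309, limma). Values in the gastric line were 15.5, 12.3 and 11.1 with myricone C and 31.9, 28.6 and 29.6 with vehicle, a log2 change of -1.17 ± 0.13 (adjusted p = 9.02e-05, limma). CHEK2 (chr22:28687743-28742422, minus strand), the kinase activated by ATM, had 11.9, 10.9 and 14.5 in SW48 myricone C libraries and 18.3, 21.7 and 21.8 in vehicle libraries. In 23132/87 it had 13.1, 10.9 and 11.5 with myricone C and 22.1, 20.7 and 19.0 with vehicle. No treated library reached a vehicle library for either kinase, and CHEK2 fell by 0.69 ± 0.14 in SW48 (adjusted p = 0.00399, limma) and fell by 0.75 ± 0.11 in 23132/87 (adjusted p = 0.000527, limma). TOPBP1, which switches on ATR, fell by 0.63 in SW48 (adjusted p = 0.0031, limma) and fell by 0.79 in 23132/87 (adjusted p = 0.000426, limma).

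ATM (chr11:108222484-108369102, plus strand) had 6.03, 6.08 and 5.58 in SW48 myricone C libraries and 4.50, 6.28 and 4.35 in vehicle libraries, with overlapping groups (0.20 ± 0.16, adjusted p = 0.350, limma). In 23132/87 ATM had 8.17, 6.35 and 6.49 with myricone C and 2.81, 2.69 and 3.46 with vehicle, and rose by 1.00 ± 0.14 (adjusted p = 0.000379, limma), the largest rise of the 40 genes in that line. ATR (chr3:142449235-142578826, minus strand) did not pass the test in either line, with 8.89, 8.67 and 6.73 in SW48 myricone C libraries and 9.75, 7.86 and 8.05 in vehicle libraries (-0.07 ± 0.15, adjusted p = 0.744, limma). The 23132/87 libraries held 5.62, 5.34 and 5.27 with myricone C and 4.66, 4.68 and 5.76 with vehicle (0.09 ± 0.13, adjusted p = 0.575, limma). Per library, the ratio of the ATM value to the ATR value was 0.679, 0.701 and 0.828 in SW48 myricone C libraries and 0.462, 0.800 and 0.540 in vehicle libraries. In 23132/87 the ratio was 1.46, 1.19 and 1.23 with myricone C and 0.603, 0.574 and 0.601 with vehicle, so the groups overlapped in SW48 and were apart in 23132/87. ATRIP, the ATR partner that binds coated single-stranded DNA, fell by 0.43 in SW48 (adjusted p = 0.0343, limma) and fell by 0.39 in 23132/87 (adjusted p = 0.0478, limma). Its call was lost in SW48 without any 1 of vehicle replicates 1, 2 and 3 and myricone C replicates 2 and 3 (-0.46 to -0.39, adjusted p = 0.0575 to 0.107) and in 23132/87 without any 1 of vehicle replicates 1 and 2 and myricone C replicates 2 and 3 (-0.37 to -0.32, adjusted p = 0.119 to 0.151). TREX1 on the same strand shares 27.9% of its exonic bases. AC109992.1 on the opposite strand covers 16.4% of those of ATR.

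The change under myricone C differed between the lines for 6 of the 40 genes by the line-by-treatment term, 3 in each direction, against 5.33% of all 10264 shared genes higher and 7.39% lower. Differences are the SW48 log2 change minus the 23132/87 log2 change. ATM (-0.80 ± 0.20, adjusted p = 0.0197, limma) and FAN1 (-0.62 ± 0.17, adjusted p = 0.025, limma) rose in 23132/87 alone, and FANCL (-0.77 ± 0.20, adjusted p = 0.0194, limma) fell in SW48 alone. XRCC3 (0.62 ± 0.20, adjusted p = 0.0489, limma), XRCC2 (0.59 ± 0.18, adjusted p = 0.0397, limma) and CHEK1 (0.56 ± 0.17, adjusted p = 0.0401, limma) had the lower log2 change in 23132/87. Each of these 6 calls was lost on leaving out at least 1 library. ATM was lost without 23132/87 vehicle replicate 2 or SW48 vehicle replicate 2 (-0.75 to -0.66, adjusted p = 0.0507 to 0.0527), and FANCL without SW48 vehicle replicate 2 or 3 (-0.71 to -0.66, adjusted p = 0.05 to 0.0538). FAN1 was lost without SW48 myricone C replicate 3, 23132/87 myricone C replicate 2 or 23132/87 vehicle replicate 2 (-0.59 to -0.53, adjusted p = 0.0602 to 0.0712). XRCC3 kept its call on removal of SW48 vehicle replicate 1 or 23132/87 vehicle replicate 3, and on removal of any other library stood at adjusted p = 0.0551 to 0.117 (0.50 to 0.68). CHEK1 kept its call on removal of SW48 vehicle replicate 3 or 23132/87 myricone C replicate 1, and on removal of any other library stood at adjusted p = 0.0606 to 0.0963 (0.46 to 0.60). XRCC2 kept its call on removal of SW48 myricone C replicate 2, 23132/87 myricone C replicate 1 or 23132/87 vehicle replicate 1, and on removal of any other library stood at adjusted p = 0.0566 to 0.0856 (0.50 to 0.60).

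**Figure D3:**
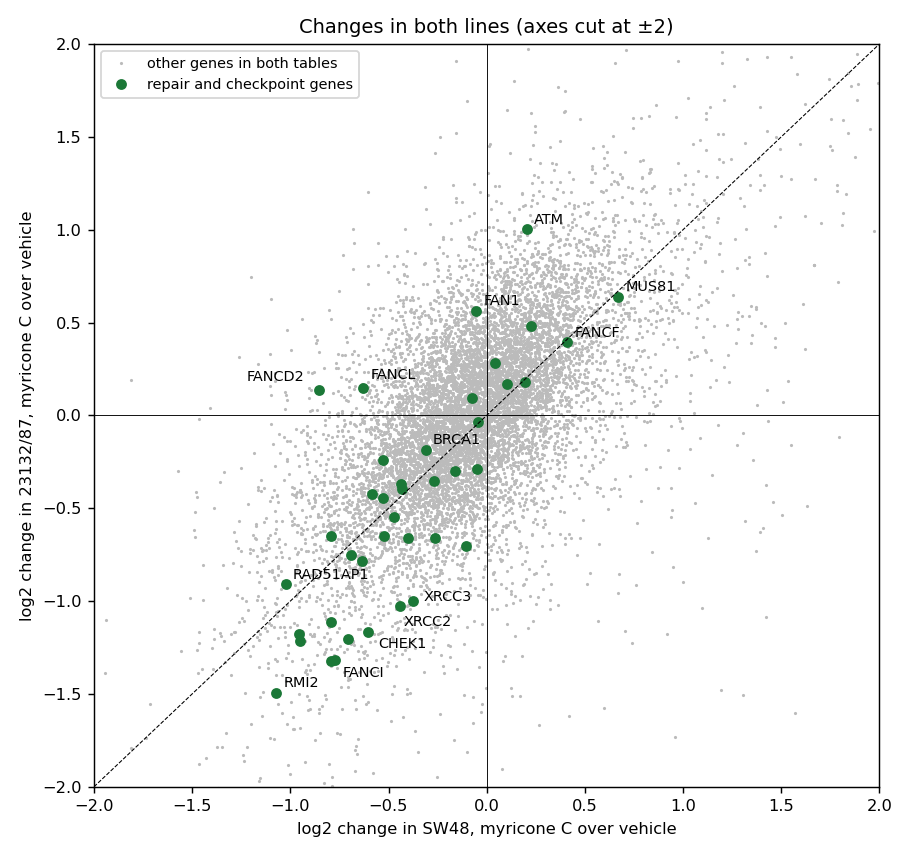
Log2 change in SW48 (x axis) against log2 change in 23132/87 (y axis), both myricone C over vehicle, with the 40 listed genes in green over the other genes in both tables in grey; the dashed line marks equal change and the axes stop at 2 on either side of 0. Most of the 40 lie at lower left, CHEK1, XRCC2 and XRCC3 lie below the dashed line, and ATM and FAN1 lie above it.

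Near the threshold, FANCI (0.53 ± 0.17, adjusted p = 0.0504, limma), UBE2T (0.54, adjusted p = 0.0841) and FANCA (0.50, adjusted p = 0.09) were not called, and each passed on leaving out 1 library: FANCI without SW48 myricone C replicate 2 (0.64, adjusted p = 0.0225), UBE2T without 23132/87 myricone C replicate 2 (0.67, adjusted p = 0.0438) and FANCA without SW48 vehicle replicate 1 (0.61, adjusted p = 0.0415). For FANCD2 the difference was -0.99 with a 95% interval of -3.00 to 1.02, in a fit that includes the high 23132/87 library. Across the 40 genes the changes in the lines had a Pearson r of 0.794 and a Spearman rho of 0.770, against 0.634 and 0.607 across all 10264 shared genes. Without FANCD2 they were 0.844 and 0.830 over 39 genes. These describe genes that share their libraries and are not tests. Levels in the separate tables, which may have been normalized separately, were set side by side without a test. Over the 40 genes the vehicle mean had a median of 10.3 in SW48 and 8.97 in 23132/87.

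**Figure D4:**
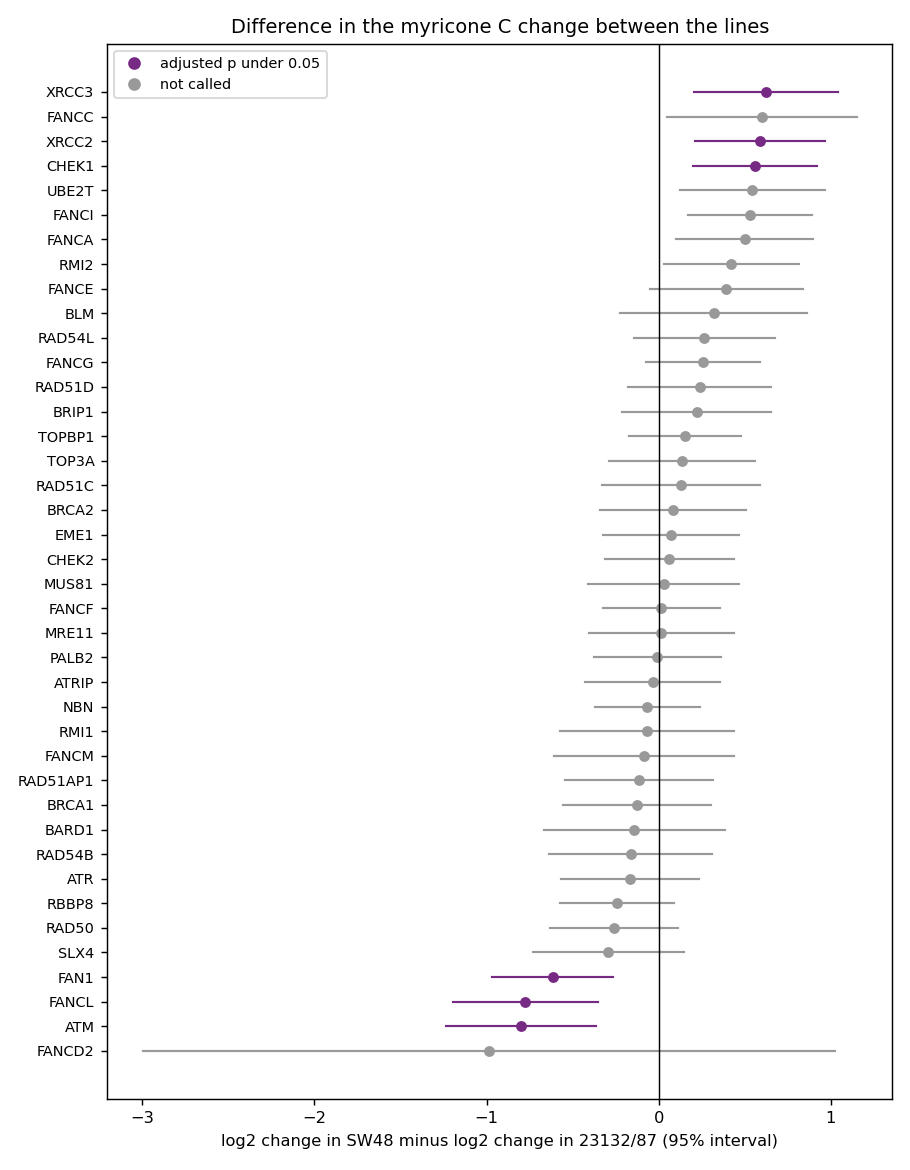
Difference in log2 change, SW48 minus 23132/87, for the 40 listed genes in order of size, with 95% intervals from limma; purple genes had an adjusted p under 0.05. XRCC3, XRCC2 and CHEK1 lie to the right of 0 and FAN1, FANCL and ATM to the left, and the interval of FANCD2 is the widest.

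Related genes outside the 40 were counted in lists of the same pathways. Over all genes, 19.2% fell and 10.1% rose in SW48, and 23.2% fell and 23.3% rose in 23132/87. Of 17 other checkpoint genes, 11 fell and 1 rose in SW48 (median log2 change -0.59), and 10 fell and 1 rose in 23132/87 (median -0.45). The members with the largest changes were RPA3, a subunit of the single-strand binding complex, at -1.32 (adjusted p = 0.00049, limma) and TIMELESS, a fork protection factor, at -1.07 (adjusted p = 0.000981, limma) in SW48. In 23132/87 they were CLSPN (claspin), the adaptor that lets ATR reach CHEK1, at -2.20 (adjusted p = 3.52e-06, limma) and CDC25A, a phosphatase that CHEK1 restrains, at -1.65 (adjusted p = 1.42e-05, limma). CLSPN averaged 1.58 ± 0.280 in 23132/87 myricone C libraries and 10.8 ± 0.821 in vehicle libraries (SD, n = 3 each). Of 12 other Fanconi pathway genes, 5 fell and the other 7 were not called in SW48 (median -0.27), and 4 fell and 1 rose in 23132/87 (median -0.25). CENPX, a histone-fold partner of FANCM, fell by 1.31 in SW48 (adjusted p = 0.000193, limma) and fell by 2.10 in 23132/87 (adjusted p = 7.2e-06, limma). It averaged 21.5 ± 4.30 in SW48 myricone C libraries and 54.0 ± 2.48 in vehicle libraries, and 20.9 ± 4.57 in 23132/87 myricone C libraries and 91.8 ± 7.12 in vehicle libraries (SD, n = 3 each). CENPS, its partner, fell by 0.97 in SW48 (adjusted p = 0.00266, limma) and fell by 0.47 in 23132/87 (adjusted p = 0.0158, limma). RFWD3, a ubiquitin ligase of crosslink repair, fell by 0.45 in SW48 (adjusted p = 0.014, limma) and fell by 1.01 in 23132/87 (adjusted p = 7.21e-05, limma).

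Of 21 other recombination genes, 7 fell and the other 14 were not called in SW48 (median -0.24), and 9 fell and 3 rose in 23132/87 (median -0.24). The largest changes were SEM1, a small BRCA2-binding protein that is also a proteasome subunit, at -1.10 (adjusted p = 0.000193, limma) and PARPBP at -0.87 (adjusted p = 0.00685, limma) in SW48, and RECQL4, a helicase, at -1.70 (adjusted p = 1.89e-05, limma) and EXO1, a resection nuclease, at -1.60 (adjusted p = 2.17e-05, limma) in 23132/87. The competing route, end joining, had 4 of 13 genes lower and 1 higher in SW48 (30.8% and 7.69%, median -0.13). It had 6 of 13 lower and 4 higher in 23132/87 (46.2% and 30.8%, median -0.10). Its largest changes were PARP1 (-0.64, adjusted p = 0.0027, limma) and XRCC6, the Ku70 subunit (-0.57, adjusted p = 0.0035, limma), in SW48, and PRKDC, the DNA-dependent kinase (-0.92, adjusted p = 4.25e-05, limma), and XRCC5, its Ku80 partner (-0.86, adjusted p = 7.06e-05, limma), in 23132/87. In the list of break signalling and the 53BP1 branch, 1 of 14 genes fell in SW48 (7.14%, against 19.2% of all genes, median -0.11). In 23132/87, 4 of 13 fell and 2 rose (30.8% and 15.4%, against 23.2% and 23.3% of all genes, median 0.08). H2AX, the histone that is phosphorylated around breaks, fell by 1.08 in SW48 (adjusted p = 0.00221, limma) and fell by 1.31 in 23132/87 (adjusted p = 7.42e-05, limma), and ABRAXAS1, the scaffold of a BRCA1 complex, rose by 0.83 in 23132/87 (adjusted p = 0.00103, limma).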

How the data were processed

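Stranded mRNA libraries (TruSeq kit, per the labels' protocols) were made from RNA with an integrity number above 8. Per the submitters' processing notes, FastQC and STAR were used, with no version given, on GRCh38. How reads were counted, on which strand and annotation and in what unit, is not given in the sources used here. Each line has 1 table, in which the authors deposited a signal value for every listed gene and library. Every listed value is at least 1, so genes low or silent in any library of a line are not listed and depth is unknown. Columns were matched to samples by the column names in the labels.

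Values were transformed as log2(value + 1). Genes with a mean of at least 1, which all were, entered limma 3.58.1 in R 4.3.3 with a mean-variance trend, on the 6 libraries of each line without covariates, with Benjamini-Hochberg adjustment over all genes. To compare the lines, the line-by-treatment term was fitted over 12 libraries and 10264 shared genes. Errors are limma's moderated standard errors, and ± after a mean is the SD. The members and gene lists were chosen with earlier results of these data known. Library values were given for the 3 largest rises and 6 largest falls past the threshold in each line, the 4 largest differences, and CHEK1, CHEK2, ATM, ATR, BRCA1, BRCA2, FANCD2 and FANCI. RAD50 and XRCC2 were added after their values were seen. Gene positions and overlaps come from GENCODE release 29 on GRCh38, which gave all 41 genes, and 8 pseudogenes named after 5 of them are in neither table. Promoters are from RefSeq, GRCh38.p14. The code was tested on simulated data. Alternatives were pseudocounts of 0.1 and 5, quantile normalization, median scaling, a filter of at least 10 in at least 3 libraries, no trend, a fold threshold (treat, 0.25 on the log2 scale), a replicate block, all 12 libraries in 1 fit, and each library left out.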

Additional observations from a re-analysis of the deposited data

Results flagged for a closer look

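The change under myricone C differed between SW48 and 23132/87 for 6 of the 40 listed genes (7.5% lower and 7.5% higher) by limma's line-by-treatment term, against 12.7% of all 10264 shared genes (7.39% lower and 5.33% higher), so the count among the 40 is near the share over all genes. Each is given as the SW48 minus the 23132/87 log2 change with its adjusted p. ATM, the apical break kinase, differed by -0.80 (adjusted p = 0.0197, limma), with a change of 0.20 in SW48 and 1.00 in 23132/87. FANCL, the Fanconi ubiquitin ligase subunit, differed by -0.77 (adjusted p = 0.0194, limma), with -0.63 in SW48 and 0.15 in 23132/87. FAN1, a crosslink repair nuclease, differed by -0.62 (adjusted p = 0.025, limma), with -0.05 in SW48 and 0.56 in 23132/87. XRCC3, a recombination accessory protein, differed by 0.62 (adjusted p = 0.0489, limma), with -0.38 in SW48, while it fell by 1.00 in 23132/87. XRCC2, another such protein, differed by 0.59 (adjusted p = 0.0397, limma), with -0.44 in SW48 and -1.03 in 23132/87. CHEK1, the checkpoint kinase downstream of ATR, differed by 0.56 (adjusted p = 0.0401, limma), with -0.61 in SW48 and -1.17 in 23132/87.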

How the results depend on the processing

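Over 2097 results for single genes under other settings, 1925 kept their direction and side of the threshold, 148 lost a call, 23 gained one and 1 reversed. The reversal was FANCD2 in 23132/87, which ranged from -1.13 without myricone C replicate 2 to 0.77 without myricone C replicate 3. With the filter of at least 10 in at least 3 libraries, which tested 21 of the genes in SW48 and 19 in 23132/87, 12 were lower in 23132/87 and 812 genes in all differed between the lines. The 2 genes higher in SW48, MUS81 and FANCF, did not pass this filter there and were not tested, so that 0 were higher (0 at unadjusted p under 0.05, limma). Against a fold threshold (treat), 1359 genes in all were called in SW48, with 13 of the genes lower and 0 higher (1 at unadjusted p under 0.05). In 23132/87 the same threshold gave 2527 in all, with 3 of the genes higher, and 382 between the lines, with 0 of the genes in either direction (3 in each at unadjusted p under 0.05). With quantile normalization 5 genes were higher and 2 lower in the difference between lines, and FAN1 lost its call there. The difference calls of XRCC2 and XRCC3 were lost with a pseudocount of 5, and that of XRCC3 also without a trend. Higher genes made up 34.6% of all SW48 calls as deposited and 46.2% after quantile normalization, and 41.9% of calls on the difference as deposited, 53.5% after quantile normalization and 57.2% after median scaling. FANCD2 lost its SW48 call with all 12 libraries in 1 fit (-0.85, adjusted p = 0.34, limma), which includes the 23132/87 library at 120.4. It kept that call under 16 of the 17 alternatives. FANCG, FANCM and ATRIP lost theirs in SW48 under quantile normalization and median scaling, and EME1 under quantile normalization. The causes were not tested.

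Leaving out single libraries gave 2199 to 3656 calls in SW48, with 14 to 21 of the genes lower and 0 to 2 higher, and 3959 to 4888 in 23132/87, with 19 to 25 lower and 4 to 5 higher. The lowest SW48 counts, 14 lower and 0 higher (2 at unadjusted p under 0.05, limma), came without myricone C replicate 2, which also gave the 2199 calls, and without vehicle replicate 3. Between the lines 830 to 1412 genes were called, with 1 to 3 of the genes lower and 0 to 2 higher. The 830 calls came without SW48 vehicle replicate 2, and without it or 23132/87 vehicle replicate 2 the counts were 1 lower and 0 higher. No gene was higher without SW48 myricone C replicate 1 or 3 or 23132/87 myricone C replicate 3 either (6 to 8 at unadjusted p under 0.05 in these 5 fits).

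Same-numbered myricone C and vehicle libraries did not deviate together (correlations -0.07, -0.18 and -0.14 in SW48 and -0.24, 0.11 and -0.27 in 23132/87), so the numbers were not taken as pairs. The SW48 myricone C columns carry other numbers than the titles, and by column number the 2 pairs that share a number (myricone C replicate 1 with vehicle replicate 2, and 2 with 3) had correlations of 0.15 and 0.27. These were the highest of all SW48 combinations, the next being 0.13. In 23132/87 the highest, 0.36, was between myricone C replicate 1 and vehicle replicate 3. The 2 pairs are too few to settle a pairing, and the block by column number is given below. With the replicate number as a block, 16 of the genes were lower and 1 higher in SW48, 19 lower and 4 higher in 23132/87, and 770 genes in all differed between the lines, with 1 of the genes lower and 0 higher (6 at unadjusted p under 0.05, limma). When the block followed the column numbering of the SW48 table instead, 16 were lower and 0 higher in SW48 (2 at unadjusted p under 0.05), and BARD1 (-0.61, adjusted p = 0.0527), MUS81 (0.56, adjusted p = 0.104), FANCF, XRCC2, FANCG, FANCM, SLX4 and ATRIP lost their calls. Unknown depth limits the low genes, such as BRCA2 and SLX4, most.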
